A study of Mus musculus with 2 samples.

Results

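The cytosolic ribosomal proteins are the proteins of the cell's main ribosome, measured here in mouse intestinal epithelial cells with and without the bile acid cholic acid. They were taken by name, as the non-control probes for genes called Rpl or Rps with a digit, leaving out the S6 kinase genes (Rps6k), together with Rplp0, Rplp1, Rplp2 and Rpsa. This gave 197 of the 55681 probes on the array, under 92 gene names. Of these names, 77 were core ribosomal proteins, 46 of the large subunit (112 probes) and 31 of the small subunit (69 probes). The remainder were 8 paralogs with 9 probes, 6 pseudogene names with 1 probe each, and Rps19bp1, which encodes a protein that binds Rps19. In all, 187 of the 197 probes stood well above background with cholic acid and with vehicle alike, 10 did so with neither, and none with 1 of them alone. All 77 core genes were measured on both arrays, 57 with several probes and 20 with 1 probe, so the filter on dim probes removed no core gene.

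The study used 1-colour microarrays on epithelial cells of intestinal segments from wild-type male mice, and its title concerns candidate targets of PPARα, a nuclear receptor of lipid metabolism, that depend on bile acids. A single array carried RNA after cholic acid at 0.5 µM for 2 h, and a single array RNA after vehicle, DMSO at 0.05% with ethanol at 0.25%, for the same 2 h. The labels name the solvents for the vehicle only, and say neither how many mice were used nor which stretch of the gut. With 1 array for each condition there is no replicate check, so the values below describe these 2 arrays, and no test or standard error for the conditions could be computed.

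Ribosomes join a large subunit, which forms the peptide bond, to a small subunit, which reads the mRNA. Their proteins are needed in balanced amounts, although the genes lie scattered over the genome, on 19 chromosomes for the core genes here. The mRNAs of ribosomal proteins begin with a run of pyrimidines that places their translation under the growth regulator mTOR, and in the intestinal epithelium the dividing cells of the crypt make many ribosomes.

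Each probe's processed signal, an intensity after background subtraction, was put on the log2 scale and set against the 75th percentile of the probes well above background on both arrays. That percentile was 741 on the cholic acid array and 1060 on the vehicle array, a shift of 0.52 on the log2 scale. A gene's difference is cholic acid minus vehicle on this scaled log2 scale, averaged over its measured probes. Signals given below are unscaled intensities. A probe's brightness depends on its sequence as well as on its RNA, so brightness is not read as abundance from gene to gene. All 10 enterocyte markers were measured, Fabp2 among the brightest with 346000 on the cholic acid array and 325000 on the vehicle array. Markers of T cells, B and plasma cells and smooth muscle were measured too, so this does not check the purity of the epithelial cells.

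Relative to other genes, the ribosomal protein genes stood higher with cholic acid as a block. Each of the 77 core genes had a difference above the all-gene median of 0.08, and the core median was 0.43, a ratio of 1.35, which is 0.35 above that of all 12859 measured genes. That distance was 0.22 with normexp background correction and 0.032 with no filter on dim probes. The middle 50% of core genes lay between 0.36 and 0.50, the lowest at 0.09 (Rpl10) and the highest at 0.69 (Rps25). No core gene was 2-fold higher and none was 2-fold lower, against 6.57% and 2.05% of all measured genes. At 1.5-fold, 4 of the 77 were higher (Rps25, Rpsa, Rps15a and Rpl21) and none lower, against 17.8% and 7.71% of all genes. The ribosomal proteins thus had many small differences of 1 sign and no large one.

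The sign of the difference depended on the yardstick. All 77 core genes lay above 0 with the scaling used here, where 57.4% of all genes did, but none did when the arrays were scaled on the 7 spike-in controls, which moved the all-gene median by -0.89. Without any scaling, 18 of the 77 core genes were brighter on the cholic acid array, and the median ratio of cholic acid to vehicle signal was 0.943, with a range of 0.745 to 1.13. The distance from the other genes does not depend on a shift of a whole array. In bulk RNA, a change in the share of a cell type and a change in RNA per cell cannot be told apart.

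**Figure D1:**
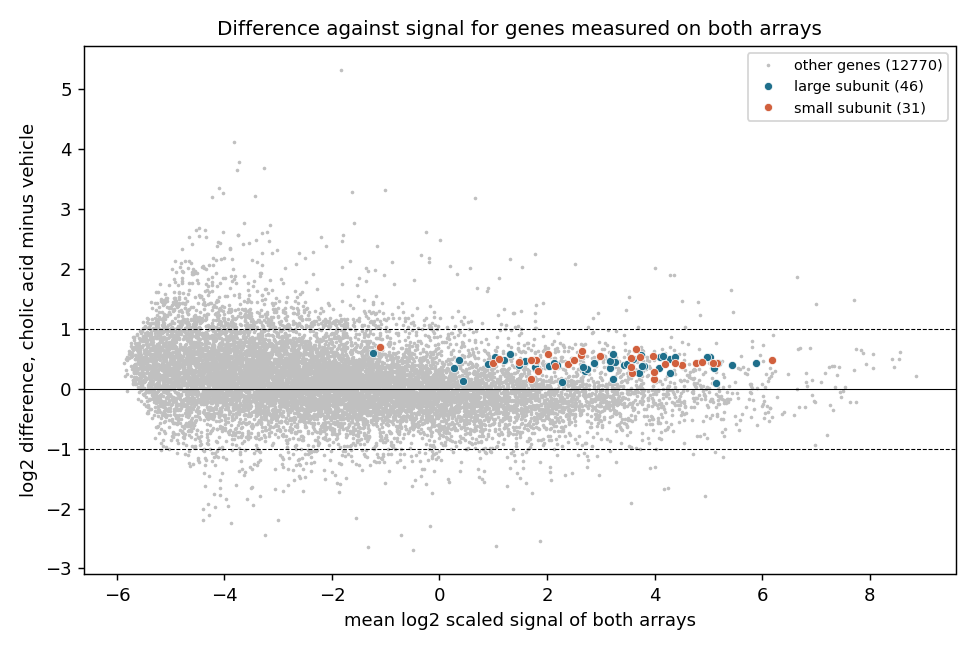
Scaled log2 difference, cholic acid minus vehicle (vertical), against the mean scaled log2 signal of both arrays (horizontal) for every gene measured on both arrays; grey points are other genes, blue points the 46 large-subunit genes and orange points the 31 small-subunit genes, and dashed lines mark 2-fold. The core genes form a narrow band between 0.09 and 0.69 in the bright part of the plot, where most other genes lie near or below 0; scaling on the spike-in controls would move all points down by 0.89.

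The ribosomal protein genes were among the bright genes of these arrays. Of the 77 core genes, 56 lay in the brightest 10% of the measured genes, and the dimmest, Rpl21, lay at the 61.4th percentile. Core genes made up 3.58% of the summed gene signal on the cholic acid array and 2.77% on the vehicle array. The brightest 10% of the other genes, 1277 genes, is therefore the closer yardstick. Its median difference was -0.11, so the core median lay 0.54 above it. Of these bright genes 38.9% had a difference above 0, 1.57% were at least 2-fold higher and 2.27% at least 2-fold lower. The range spanned by the core genes took in 25.8% of the bright genes, while 70.0% lay below the lowest core gene and 4.23% above the highest. The core genes also varied less than the bright genes, with a robust SD of 0.098 (from the median absolute deviation) against 0.36. Set against the core median in place of the array percentile, 1.99% of the 12770 genes outside the ribosomal set were at least 2-fold higher with cholic acid and 8.21% at least 2-fold lower.

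Large and small subunit did not separate. The 46 large-subunit genes had a median difference of 0.42 with a robust SD of 0.10, and the 31 small-subunit genes a median of 0.44 with a robust SD of 0.091. The gap of -0.02, large minus small, is well below the spread within either subunit. The large-subunit genes had a median signal of 7658 on the cholic acid array and 8332 on the vehicle array. The small-subunit genes had a median signal of 9770 on the cholic acid array and 10510 on the vehicle array. Gene signals ran from 386.2 to 50900 in the large subunit and from 435.4 to 63500 in the small subunit on the cholic acid array, and from 365.5 to 54000 and from 386.8 to 65000 on the vehicle array. These ranges overlap almost wholly. The log2 signals of the 175 core probes on the 2 arrays had a Pearson r of 0.998, beside 0.977 across all measured genes. This is a description within the same 2 samples. Probe sequence sets brightness on both arrays alike, so a high r says little about the treatment.

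**Figure D2:**
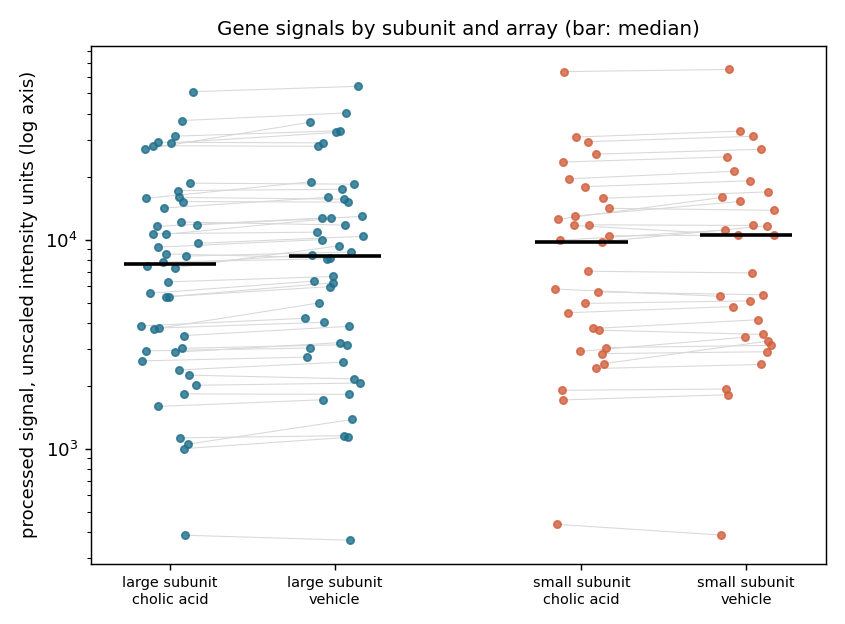
Unscaled processed signal of each core gene (vertical, log axis) on the cholic acid array and the vehicle array, for 46 large-subunit genes (blue) and 31 small-subunit genes (orange); grey lines join the same gene and black bars are medians. The medians are 7658 with cholic acid and 8332 with vehicle in the large subunit, and 9770 with cholic acid and 10510 with vehicle in the small subunit, and both subunits cover the same range.

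Among the brightest of the large subunit were Rpl41, the smallest of the ribosomal proteins, with 50900 on the cholic acid array and 54000 on the vehicle array, and Rpl38, known in the mouse for its part in translating Hox mRNAs, with 37050 on the cholic acid array and 40290 on the vehicle array. Their differences were 0.43 and 0.40. In the small subunit Rps14, which lies near the mRNA exit, was brightest, with 63500 on the cholic acid array and 65000 on the vehicle array and a difference of 0.48. The next were Rps20 (30900 with cholic acid, 33000 with vehicle) and Rps12 (29360 with cholic acid, 31160 with vehicle), at 0.42 and 0.43. The bright genes named here stood close to the core median, but not every bright gene did. Rpl10, with 27060 on the cholic acid array and 36350 on the vehicle array, had the lowest difference of the core, 0.09.

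The stalk of the large subunit recruits the elongation factors and is built from Rplp0, Rplp1 and Rplp2. Rplp0, its base, had 14150 on the cholic acid array and 15930 on the vehicle array, a difference of 0.35. Rplp1 had 15200 on the cholic acid array and 15100 on the vehicle array, a difference of 0.53. Rplp2 had 31200 on the cholic acid array and 33100 on the vehicle array, a difference of 0.43. The stalk proteins thus covered the middle of the core range. Rpl5 and Rpl11, which carry the 5S rRNA and bind the p53 regulator Mdm2, had differences of 0.52 and 0.49. Rpl5 had 1830 with cholic acid and 1820 with vehicle, and Rpl11 had 10670 with cholic acid and 10850 with vehicle.

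In the small subunit, Rps6, the substrate of the S6 kinases, had 1712 on the cholic acid array and 1813 on the vehicle array, a difference of 0.43, the same as the core median. Rps19, whose human counterpart is mutated in Diamond-Blackfan anaemia, had 2420 with cholic acid and 2530 with vehicle, a difference of 0.45. Rps27a, which is made as a fusion with ubiquitin, had 11760 with cholic acid and 11680 with vehicle, a difference of 0.53. Rps4x, encoded on the X chromosome, had 4951 with cholic acid and 5095 with vehicle, a difference of 0.48. Rpl13a, a large-subunit protein that can leave the ribosome to repress translation in inflammation, had 2012 with cholic acid and 2062 with vehicle, and its 3 probes stood at 0.36, 0.39 and 0.69.

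The core genes did differ among themselves by more than their own probes did. In the 52 core genes with several probes of signal 1000 or more (133 probes), the pooled SD between probes of the same gene was 0.077, against an SD of 0.12 between the gene means. The range between probes had a median of 0.082, and in 48 of the 52 genes it was below 0.2. For scale, 1 core probe, for Rpl23, was spotted 10 times. It is dimmer than the probes above, with 255.8 on the cholic acid array and 277.4 on the vehicle array. Its SD between spots was 0.068 on the cholic acid array and 0.069 on the vehicle array. This gives an SD of 0.097 for a difference between single spots. Probes of a gene share the same 2 RNA samples, so agreement between them says nothing about other animals.

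**Figure D3:**
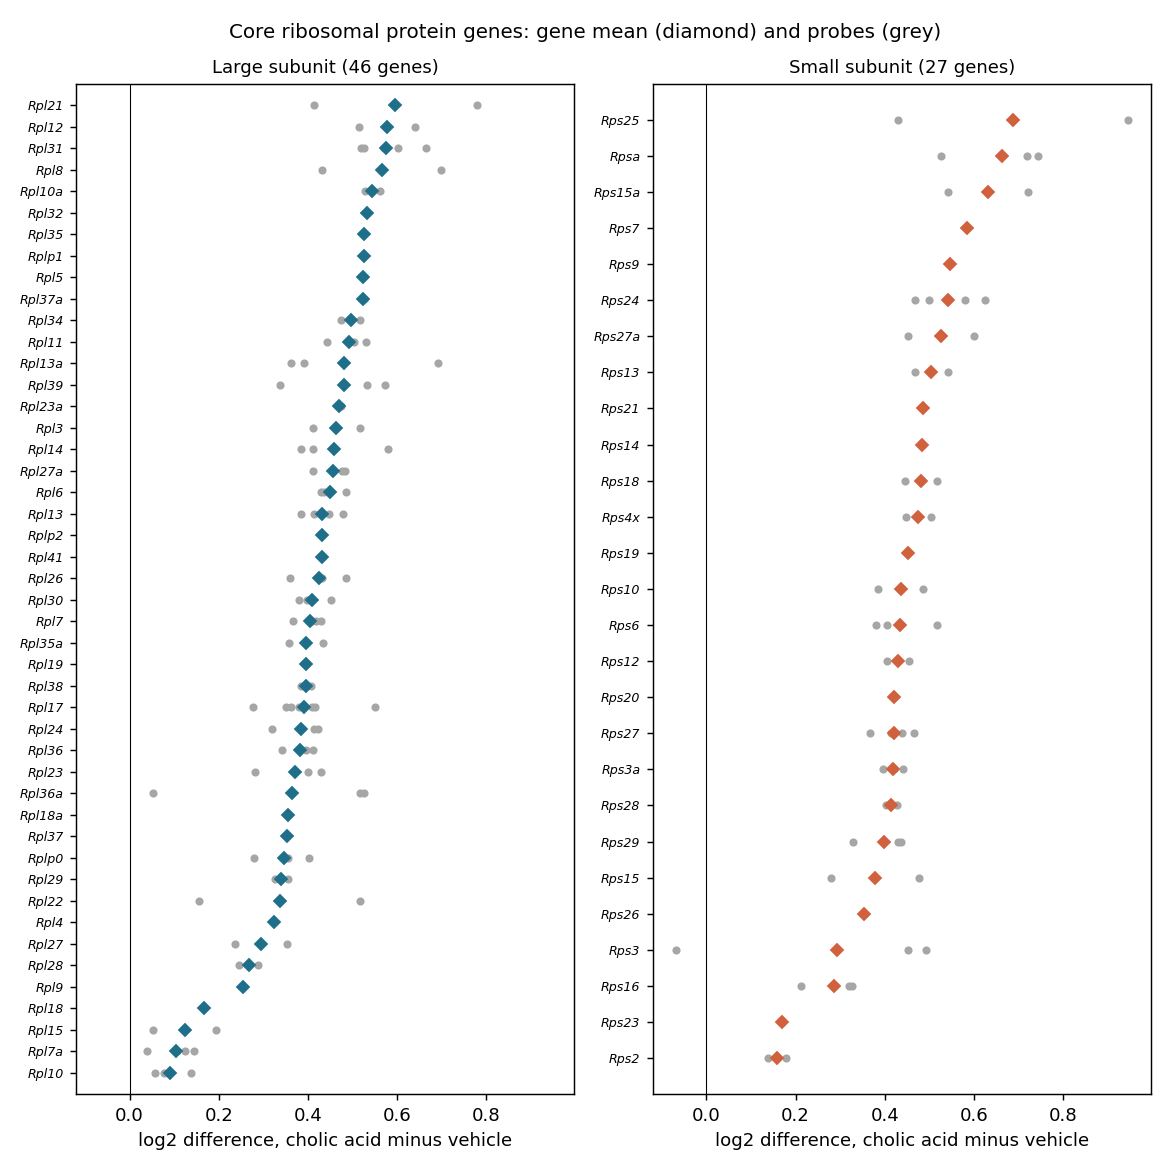
Scaled log2 difference, cholic acid minus vehicle (horizontal), of 46 large-subunit genes (left) and 27 of the 31 small-subunit genes (right), ordered from lowest (bottom) to highest (top); coloured diamonds are gene means and grey dots single probes. Gene means run from 0.09 to 0.60 in the large subunit and from 0.16 to 0.69 in the small subunit, with Rpl10, Rpl7a, Rpl15, Rpl18, Rps2 and Rps23 below 0.2; with scaling on the spike-in controls every gene mean lies below 0.

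At the low end stood Rpl10, which joins the large subunit late in its assembly and lies by the P site. Its 3 probes had 24500, 27600 and 29300 on the cholic acid array, against 33700, 37400 and 38100 on the vehicle array, and the differences were 0.06, 0.08 and 0.14. All 3 probes were dimmer with cholic acid before scaling. Rpl7a, a large-subunit protein bound to rRNA at the surface, had probes of 1400, 2180, 6600 and 9710 on the cholic acid array, against 1950, 2860, 8540 and 12900 on the vehicle array. Its 4 differences ran from 0.04 to 0.14. In the small subunit Rps2, at the mRNA entry, had probes of 2030 and 3210 with cholic acid, against 2640 and 4060 with vehicle, with differences of 0.14 and 0.18. The low values of these genes were thus shared by all their probes.

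Some other low genes rested on fewer or less even probes. Rpl15, which sits deep in the large subunit's rRNA, had 6080 and 182 with cholic acid, against 7600 and 251 with vehicle, at 0.19 and 0.05. Rpl18 had 7330 with cholic acid and 9340 with vehicle (0.17), and Rps23, a protein of the decoding centre, had 12500 with cholic acid and 15900 with vehicle (0.17), each from 1 probe. Rpl9 (0.25), Rpl28 (0.27), Rps16 (0.29) and Rps26 (0.35) followed. The probes of Rpl9, Rpl28 and Rps16 were even, with ranges of 0.001, 0.044 and 0.11, while Rps26 had 1 probe. Rps3, at the mRNA entry and known also as a DNA repair factor, had probes at 0.45 and 0.49 and a dimmer probe of 693 with cholic acid, against 1040 with vehicle, at -0.07, the only core probe below 0 with the scaling used. Its gene mean of 0.29 therefore rests on that probe, and without it the mean was 0.47.

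At the high end stood Rpsa, a small-subunit protein also known as the laminin receptor. Its 3 measured probes had 1530, 21300 and 48900 on the cholic acid array, against 1520, 18200 and 42500 on the vehicle array, with differences of 0.53, 0.74 and 0.72 and a gene mean of 0.66. All 3 were brighter with cholic acid even before scaling. Rps15a had probes of 5190 and 6490 with cholic acid, against 5100 and 5630 with vehicle, at 0.54 and 0.72. Rps7, which also binds Mdm2, had 3690 with cholic acid and 3520 with vehicle from its 1 probe, a difference of 0.58. Rps9, also from 1 probe, stood at 0.55.

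In the large subunit the high end held Rpl12 at the base of the stalk (0.58), Rpl31 at the exit of the peptide tunnel (0.58), Rpl8 near the site of peptide bond formation (0.57), Rpl10a of the flexible L1 arm (0.54) and Rpl32 (0.53). The probes of Rpl31, 5 in all, ran from 0.52 to 0.67. The brighter Rpl8 probe, with 18200 with cholic acid and 19300 with vehicle, stood at 0.43. The dimmer Rpl8 probe, with 8090 with cholic acid and 7130 with vehicle, stood at 0.70. The first in rank in each subunit, Rps25 at 0.69 and Rpl21 at 0.60, owed that to a dim probe. Rps25 had a probe of 27.6 with cholic acid and 20.5 with vehicle at 0.95, and a probe of 6870 with cholic acid and 7300 with vehicle at 0.43. Rpl21 had a probe of 52.9 with cholic acid and 44.1 with vehicle at 0.78, and a probe of 2820 with cholic acid and 3030 with vehicle at 0.41. From probes of signal 1000 or more alone, all 77 core genes still lay between 0.09 and 0.69, with Rpl10 lowest and Rpl13a highest.

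Dim probes widened the spread, and the dimmest leaned high, though not all of them. The 17 core probes under a signal of 1000 on either array had a median of 0.41 and a robust SD of 0.21. Those of 1000 or more on both arrays, 158 probes, had a median of 0.43 and a robust SD of 0.11. The 7 probes under 100 on either array had a median of 0.67 and ran from 0.16 to 0.95. In 16 core genes the brightest measured probe was at least 10 times the dimmest on each array. In Rps25 and Rpl21, above, the dim probe had the higher difference. Rpl22 went the other way, at 0.16 for a probe of 97.4 with cholic acid and 125 with vehicle and at 0.52 for a probe of 10300 on both arrays. Rpl39, a small protein lining the peptide tunnel, had 23.5 with cholic acid and 26.6 with vehicle at 0.34, beside 2 bright probes at 0.53 and 0.57. The range between probes had a median of 0.21 in these 16 genes. Across all 175 measured core probes the difference was nearly unrelated to mean signal (Pearson r = -0.11, Spearman rho = 0.00) or to the GC content of the probe (r = 0.04, rho = 0.01), as a description across probes that share both arrays.

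**Figure D4:**
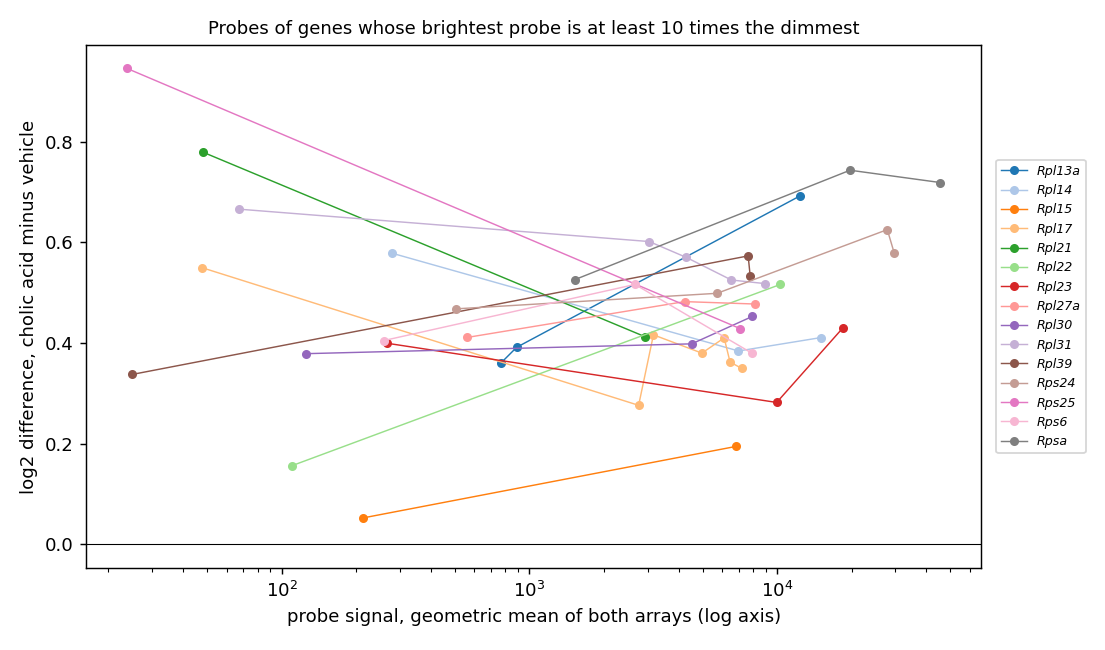
Scaled log2 difference, cholic acid minus vehicle (vertical), against probe signal as the geometric mean of both arrays (horizontal, log axis) for 15 of the 16 core genes whose brightest probe is at least 10 times the dimmest; each point is a probe and lines join the probes of a gene. Dim probes of Rps25 and Rpl21 lie at 0.95 and 0.78, those of Rpl22 and Rpl15 at 0.16 and 0.05, and bright probes lie closer together; all points would lie 0.89 lower with scaling on the spike-in controls.

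Since ribosomal protein genes have many near-identical copies, probe sequences from genes at both ends of the range are shown here, 5′ to 3′, with the longest run of 20 or more bases shared exactly with a probe of another name in capitals. The first 4 belong to low genes, the next 2 to high genes, and the last 2 to the Rps19 pair treated below. Positions are those of the array design on mm9.
Rpl10 at chrX:71518307-71518366, plus strand: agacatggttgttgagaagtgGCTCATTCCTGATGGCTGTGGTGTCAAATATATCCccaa
Rpl7a at chr2:26768730-26768789, plus strand: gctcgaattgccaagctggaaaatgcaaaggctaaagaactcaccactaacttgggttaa
Rps2, first probe, at chr17:42864841-42864900, plus strand: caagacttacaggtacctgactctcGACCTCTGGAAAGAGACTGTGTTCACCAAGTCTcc
Rps2, second probe, at chr17:24857583-24857642, plus strand: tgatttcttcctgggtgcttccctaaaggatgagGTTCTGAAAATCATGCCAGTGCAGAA
Rps7 at chr12:29319087-29319146, minus strand: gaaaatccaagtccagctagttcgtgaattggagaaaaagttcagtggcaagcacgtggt
Rpsa, probe with the difference of 0.74, at chr9:120040269-120040849, plus strand: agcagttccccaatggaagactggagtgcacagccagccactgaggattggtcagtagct
Rps19 at chr7:25670166-25670225, plus strand: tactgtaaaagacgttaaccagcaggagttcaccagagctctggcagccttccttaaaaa
Rps19-ps6 at chr7:25673948-25674786, plus strand: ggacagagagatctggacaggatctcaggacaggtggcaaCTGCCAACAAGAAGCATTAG

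Shared runs were found at both ends and in the middle of the range. The Rpl7a, Rps7, Rpsa and Rps19 probes shown have no such run, and the Rpl10 probe shares 35 bases. The probes of Rps2 are placed 18007258 bases apart on chromosome 17, so the design does not place them at the same locus, and their differences were 0.14 and 0.18. Over all measured core probes, 48 shared a run of 30 or more bases with a probe of another name and had a median difference of 0.41, while 127 did not and had a median of 0.43. The design places 11 core probes on another chromosome than the gene's in RefSeq, among them all 4 of Rps27 on chromosome 9 and all 3 of Rps29 on chromosome 2, and their median was 0.43. For such probes the signal of the named gene and that of its copies cannot be told apart.

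Where probes of a gene overlap, the bases themselves could be set side by side. A pair of Rpl36a probes overlaps by 55 bases and differs at 2 of them, which fall in the stretch of 30 bases shown, with the differing bases in capitals.
Rpl36a, first probe, at chrX:131122535-131122594, plus strand: gattgcagttgttcTtttgggagggaataA
Rpl36a, second probe, at chrX:131122540-131122599, plus strand: gattgcagttgttcGtttgggagggaataC
Counted from 1 at the 5′ end of the stretch, and with the first probe's base first, the changes are T15G and A30C. The first probe had 3290 on the cholic acid array and 3270 on the vehicle array, a difference of 0.53. The second probe had 3140 on the cholic acid array and 4330 on the vehicle array, a difference of 0.05. A further Rpl36a probe, with 2350 on both arrays, stood at 0.52, so the second probe was the one apart, and the gene mean of 0.36 hides that split. This range of 0.47 was the widest among core genes with several probes of signal 1000 or more.

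A pair of Rpl7a probes, placed at the same 60 positions, did not split. They differ at 6 of the 60 bases, all in the stretch shown.
Rpl7a, first probe, at chr2:26768759-26768818, plus strand: tTgGgttaaatgtaTGctGaattttctgtA
Rpl7a, second probe, at chr2:26768759-26768818, plus strand: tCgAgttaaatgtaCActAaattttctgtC
The changes from the first probe to the second are T2C, G4A, T15C, G16A, G19A and A30C. The first probe was brighter, with 9710 on the cholic acid array and 12900 on the vehicle array, and the second had 2180 on the cholic acid array and 2860 on the vehicle array. Their differences were 0.11 and 0.12, so a change of probe sequence that went with a dimmer signal left the difference where it was.

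The paralogs are gene copies that can stand in for a core protein, often in a particular tissue. Of 8 paralogs 5 were measured. Rpl22l1, which can replace Rpl22, had 3940 on the cholic acid array and 4350 on the vehicle array, a difference of 0.37, between the 0.16 of the dim and the 0.52 of the bright Rpl22 probe. Rpl36al had 4460 with cholic acid and 4920 with vehicle, a difference of 0.37, between the 0.05 and the 0.52 and 0.53 of the Rpl36a probes. Rpl7l1, which acts in making the large subunit, was dim, with 45.2 with cholic acid and 56.9 with vehicle, a difference of 0.18 beside 0.41 for Rpl7. Rps4y2, named here after its values were seen, had 868 with cholic acid and 979 with vehicle, a difference of 0.34.

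Rps27l, a paralog of Rps27 that p53 induces, was the paralog farthest from its core partner. It had 11100 on the cholic acid array and 15700 on the vehicle array, a difference of 0.02. Rps27 had 17890 on the cholic acid array and 19100 on the vehicle array, a difference of 0.42, with its 4 probes between 0.37 and 0.46. Rps27l thus lay below every core gene. Rpl10l and Rpl39l, known from testis, and Rpl3l, known from heart and skeletal muscle, were not well above background on either array. Their probes had signals of 3.08 to 10.5 with cholic acid and 3.29 to 5.05 with vehicle, where the 308 negative control spots had a median of 3.10 with cholic acid and 3.33 with vehicle. The highest of these was an Rpl10l probe, with 10.5 with cholic acid and 4.13 with vehicle. Their core partners Rpl10, Rpl39 and Rpl3 stood at 0.09, 0.48 and 0.46.

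Of the 6 pseudogene names, 5 lay between 0.41 and 0.59 and 1 stood apart. The probe named Rps19-ps6 had 5460 on the cholic acid array and 3720 on the vehicle array, a difference of 1.07, and was the only member of the whole set at least 2-fold apart. RefSeq places Rps19-ps6 on chromosome 12, but the design places this probe on chromosome 7, 3723 bases beyond the end of the Rps19 probe on the same strand, as the coordinates above show. It spans 839 positions there, which a 60-base probe can only do by joining separate blocks. The Rps19 probe stood at 0.45, well below its neighbour. The probes named Rps19-ps4 and Rps19-ps13 stood at 0.45 and 0.59. A mismatch of chromosome was not particular to Rps19-ps6. Rps19-ps4 (chromosome 12 in the design, 18 in RefSeq) and Rpl34-ps1 (chromosome 3 in the design, 6 in RefSeq) had it too, at 0.45 and 0.49. Which transcript the Rps19-ps6 probe reads was not tested.

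Certain promoter letters, which the choice of members did not use, were more frequent among core genes than among all genes, although each of them was missing from most core promoters. Shown are 80 bases, from 60 before the RefSeq start to the first 20 transcribed, on GRCm38.p6, for 3 genes near the core median or above it (Rps6, Rpl35, Rps10) and 3 low genes (Rpl10, Rps2, Rpl7a). Capitals mark CCGGAAG on either strand, the core letters bound by ETS factors, and a run of 8 or more C or T from 10 bases before to 20 bases after the start.
Rps6 at chr4:86857348-86857427, minus strand: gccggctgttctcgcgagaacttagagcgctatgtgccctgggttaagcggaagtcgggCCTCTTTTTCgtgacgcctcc
Rpl35 at chr2:39005112-39005191, minus strand: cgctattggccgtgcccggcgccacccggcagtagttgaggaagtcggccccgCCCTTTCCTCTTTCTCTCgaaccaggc
Rps10 at chr17:27635225-27635304, minus strand: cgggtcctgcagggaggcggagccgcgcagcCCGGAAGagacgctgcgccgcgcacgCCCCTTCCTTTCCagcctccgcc
Rpl10 at chrX:74270756-74270835, plus strand: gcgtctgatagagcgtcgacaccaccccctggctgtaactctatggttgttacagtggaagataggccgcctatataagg
Rps2 at chr17:24720003-24720082, plus strand: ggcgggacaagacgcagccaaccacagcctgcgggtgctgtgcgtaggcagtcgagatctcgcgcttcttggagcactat
Rpl7a at chr2:26910747-26910826, plus strand: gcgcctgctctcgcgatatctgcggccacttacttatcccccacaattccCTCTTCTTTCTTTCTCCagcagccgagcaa

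In the RefSeq promoter table, which runs from 250 bases before to 50 after each start, 67 promoters matched 57 core genes. CCGGAAG was found on either strand in 25 of the 67 (37.3%), against 8.86% of all 32851 promoters. The pyrimidine run at the start was found in 23 (34.3%), against 11.2%, and the TATA letters TATAAA, from 40 to 10 bases before the start, in none, against 2.08%. Core genes with CCGGAAG had a median difference of 0.44 (24 genes) and those without 0.40 (33 genes). The medians were 0.43 with the pyrimidine run (23 genes) and 0.42 without it (34 genes). Of the 3 low genes shown, Rpl7a has a pyrimidine run and Rpl10 and Rps2 have none at the RefSeq start used. These are matches of letters, not measured sites.

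The neighbouring gene groups were set beside the ribosomal proteins. The 23 translation factors and other genes with pyrimidine-run mRNAs, a list that also holds the ribosome's Fau and Rack1, had a median difference of 0.24. Of these, 22 lay above 0, against 57.4% of all genes. None was 2-fold higher or lower, against 6.57% and 2.05% of all genes. Among them Eif3e, a subunit of the initiation factor eIF3, had the largest at 0.49. Rack1, a scaffold on the small subunit, stood at 0.46 and Npm1, a nucleolar chaperone, at 0.46. Fau, which carries a ribosomal protein fused to a ubiquitin-like protein and was named after its value was seen, stood at 0.12. The group lay between the core and the all-gene median.

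The genes that build ribosomes stood higher. Of the 28 biogenesis genes on the list 24 were measured, with a median of 0.61 and 23 above 0, where 57.4% of all genes were. Only 1 was at least 2-fold higher and none 2-fold lower, against 6.57% and 2.05% of all genes. The one past 2-fold was Rrp9, which binds the U3 RNA that guides rRNA processing, with 50.4 on the cholic acid array and 32.9 on the vehicle array (1.13). The exception was Sbds, which helps to release Eif6 from new large subunits and was named after its value was seen, with 1470 with cholic acid and 2950 with vehicle (-0.49). These genes are dimmer than the ribosomal proteins, and dimmer genes had higher differences in general: in bins of 10% of the other genes by mean signal, the median was 0.39 in the dimmest bin and -0.11 in the brightest. What part brightness had in the biogenesis group was not tested.

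RNA polymerase I, which transcribes rRNA, had 10 of 14 genes measured, with a median of 0.23 and Polr1e at 1.44, from 34.0 with cholic acid and 17.9 with vehicle. The mTOR, S6 kinase and Myc group had 19 of 21 genes measured, with a median of -0.07. In it Eif4ebp1, a repressor of cap-dependent translation under mTOR, had 450 with cholic acid and 1430 with vehicle (-1.15). The kinase gene Rps6ka2 had 31.1 with cholic acid and 22.0 with vehicle (1.02). The 78 mitochondrial ribosomal protein genes had a median of 0.09, close to all genes. A single gene was at least 2-fold higher and none 2-fold lower, against 6.57% and 2.05% of all genes. It was Mrps27 at 1.42, from 44.2 with cholic acid and 23.6 with vehicle. The mitochondrial ribosome thus stood 0.34 below the cytosolic core.

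**Figure D5:**
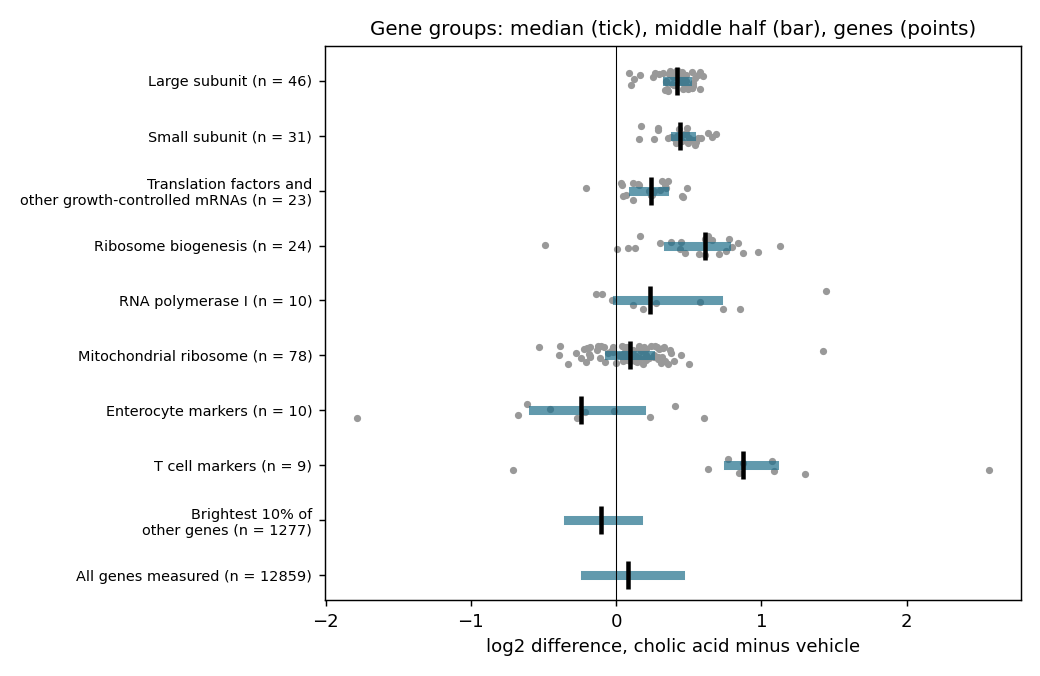
Scaled log2 difference, cholic acid minus vehicle (horizontal), for groups of genes measured on both arrays; ticks are medians, bars the middle 50% of genes and grey points single genes (not drawn for the 2 large groups at the bottom). The large and small subunits sit at 0.42 and 0.44, biogenesis at 0.61, the mitochondrial ribosome at 0.09 and the brightest 10% of other genes at -0.11; scaling on the spike-in controls would move every group down by 0.89.

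Markers of other cell types also differed between the arrays. The 10 enterocyte markers had a median of -0.24, with Apoa4, a lipid-carrier protein, at -1.79. Their summed scaled signal was 1304 with cholic acid and 1225 with vehicle. The 9 T cell markers measured, of 10 listed, had a median of 0.87. Of these, 8 lay above 0, where 57.4% of all genes did. At least 2-fold higher were 4 and 2-fold lower none, against 6.57% and 2.05% of all genes. The summed scaled signal of these markers was 26.5 with cholic acid and 22.7 with vehicle. The brightest of them, Cd4, went against the group, with 5650 with cholic acid and 13200 with vehicle (-0.71). Of 7 B and plasma cell markers 5 were measured (median 1.54, sum 4.33 with cholic acid and 3.19 with vehicle). The brightest of these, Jchain, had 2190 with cholic acid and 3100 with vehicle (0.02). Of 5 smooth muscle markers 3 were measured (median 0.98, sum 0.934 with cholic acid and 0.750 with vehicle), without Des and Myh11. Of 6 crypt and cycling markers 5 were measured (median 0.56, sum 1.19 with cholic acid and 0.726 with vehicle), without Lgr5. Ascl2 (0.40), Olfm4 (0.56) and Top2a (0.44) among them had signals of 23.6 to 37.2 with cholic acid and 22.9 to 39.2 with vehicle, in the 2 dimmest bins, where the median over other genes was 0.39 and 0.31. The brighter Mcm5 and Mki67 stood farther above the medians of their bins. Mcm5 had 174 with cholic acid and 104 with vehicle (1.26), where the bin median was 0.10. Mki67 had 624.1 with cholic acid and 576.8 with vehicle (0.63), where the bin median was -0.07. The part of these cell types in the ribosomal protein difference was not tested.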

How the data were processed

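The authors deposited 2 scanner files with spot intensities from Agilent Feature Extraction (version 10.7.1.1 per the file headers, 9.5.1.1 per the submitters' processing notes). The design gives probe positions on mm9. As the file headers state, the deposited processed signal is an intensity after background subtraction and spatial detrending. Per the labels, RNA was amplified and labelled with Cy3. A table of 55681 normalized intensities that the authors deposited (median 10.09 on either array) served as an alternative. On the log2 scale it followed the deposited scanner signal with r = 0.9998 for cholic acid and 0.9999 for vehicle.

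Each array had 62976 spots, 3671 of them controls. None was saturated, and 119 (cholic acid) and 124 (vehicle) were left out for non-uniformity or outlier flags. Log2 signals were averaged per probe, scaled on the 75th percentile of 22612 probes (well above background with both treatments), and averaged per gene over those probes. Members keep the files' gene names; other probes were named through a RefSeq table of GRCm38.p6, from which promoters came too. The number of arrays limits the precision.

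The members and lists were chosen with earlier results of these data known. Named genes were members at least 2-fold apart, the 6 highest and 6 lowest differences and the 4 brightest and 4 dimmest genes of each subunit, a fixed set of well-known proteins and paralog pairs, and in the other lists members 2-fold apart or else up to 3 with the largest difference. Some genes that this rule names are not reported here. Alternatives covered scaling, normalization (quantile, loess with a span of 0.4), normexp with an offset of 50, the authors' values, dim-probe filters, probe choice, member choice and fold limits. The steps were tested on simulated data. Python 3.11.15, numpy 2.4.6, pandas 2.3.3, statsmodels 0.14.6, matplotlib 3.10.9, R 4.3.3 and limma 3.58.1 were used.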

Additional observations from a re-analysis of the deposited data

Results flagged for a closer look

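Ribosomal protein sequence was also measured by probes that the choice by gene name left out. A further 78 probes carry a description naming a ribosomal protein of the large or small subunit under another gene name. Of these, 65 (83.3%) exceeded background clearly with cholic acid and with vehicle, while of 308 negative control spots 1 did so on each array. Over all 55681 probes the share was 40.6%. Their median difference was 0.41 with a robust SD of 0.20, beside 0.43 for the core genes, and they ran from -0.34 to 1.91. With the scaling used, 61 lay above 0, where 57.4% of all genes did. At least 2-fold higher were 3 and 2-fold lower none, against 6.57% and 2.05% of all genes. Which transcripts these probes read was not tested.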

How the results depend on the processing

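The scaling set the level of the core differences, and the distance from the bright genes did not depend on it. The core, large-subunit and small-subunit medians were 0.20, 0.19 and 0.21 with the 75th percentile over all probes, 0.30, 0.28 and 0.31 with centring on the median, and -0.46, -0.48 and -0.45 with the spike-in controls. These scalings shifted the all-gene median by -0.23, -0.13 and -0.89, and left 71, 74 and 0 of the 77 core genes above 0. The core median minus the bright-gene median stayed between 0.51 and 0.55 in all 16 alternatives, and large minus small between -0.05 and -0.01 in all 15. The scalings named above are among these alternatives, but each shifts a whole array, so they could not change a difference between medians. The core median minus the all-gene median stayed above 0 in all 15, but was 0.22 with normexp and 0.032 with no filter on dim probes, where the all-gene median was 0.40 because probes near background enter. The count of genes at least 2-fold higher was 1 over all names of the rule (Rps19-ps6) and 4 at a 1.5-fold limit. The count at least 2-fold lower was 0 in all 17 alternatives. Leaving out 60 member probes shared with another name or placed elsewhere, or those under a signal of 1000, were alternatives chosen after seeing the data, and both moved every value by less than the SD between single spots (0.097). No paired analysis was possible because each condition has 1 array, and leaving out a replicate could not be done. The number of arrays, the choice of scaling, probes shared with gene copies and dim probes all limit what the core values show.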
